A study of Homo sapiens with 6 samples.

Results

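Kinesins are motor proteins that act on microtubules, and most walk along them. The data below are the levels of kinesin transcripts in MDA-MB-231, an established triple-negative breast cancer line of mesenchymal type. Members were the rows of the deposited table whose symbol was KIF followed by a number and an optional letter A to C, or KIFC1 to KIFC3. This gave 42 genes of 61280 rows, and no symbol was repeated. The 2 groups were cells irradiated with 20 Gy of X-rays and then cultured for 24 h, and cells left untreated as control, with 3 libraries in each. Both groups were the same line in DMEM with serum and antibiotics, and the labels name no other agent or genetic change. The culture time of the controls was not given, so it cannot be told apart from irradiation, and since nothing says that the replicates were cultured apart, the spread behind each p-value may be only technical.

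Kinesins share a motor domain, and most use it to split ATP and step along a microtubule. Some build and move the mitotic spindle, move chromosomes and act in cytokinesis, and their transcripts are known to accumulate in G2 and M phase. Others carry vesicles, mitochondria and endosomes through the cytoplasm in all phases of the cycle, and further kinesins work in cilia or tunes the length of microtubules. The 42 genes were sorted by these known roles into 14 mitotic kinesins, 15 transport kinesins, 9 cilium and microtubule-regulating kinesins and 4 others.

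Mitotic kinesins share promoter elements described in the cell cycle literature, and the sequences of 8 of them are shown: both that were called and 6 that were not, of which 4 hold a match to the CHR letters given below and 2 do not. They were chosen after the values were seen. The windows are the last 150 bases before the RefSeq transcription start (GRCh38.p14), on the plus strand except for KIF18B on the minus strand, printed 5′ to 3′ along the gene. KIF20A (chr5:138178962-138179111) and KIFC1 (chr6:33391673-33391822) fell after irradiation, while KIF15 (chr3:44761644-44761793), KIF23 (chr15:69414199-69414348), KIF11 (chr10:92592980-92593129), KIF4A (chrX:70289954-70290103), KIF2C (chr1:44739687-44739836) and KIF18B (chr17:44947774-44947923) did not pass the test. Capitals mark the motifs searched on both strands: the cell cycle genes homology region (CHR, TTTGAA or TTCGAA), the CCAAT box and the E2F motif (TTTCCCGC or TTTGGCGC). On the printed strand a CCAAT box in the other direction reads ATTGG, and a reversed CHR reads TTCAAA.
KIF20A: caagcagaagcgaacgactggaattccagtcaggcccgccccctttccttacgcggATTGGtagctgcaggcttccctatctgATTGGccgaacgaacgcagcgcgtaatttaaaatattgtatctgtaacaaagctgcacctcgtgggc
KIFC1: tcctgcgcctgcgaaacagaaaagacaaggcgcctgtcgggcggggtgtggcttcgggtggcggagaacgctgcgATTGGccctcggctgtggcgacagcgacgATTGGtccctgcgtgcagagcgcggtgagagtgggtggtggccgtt
KIF15: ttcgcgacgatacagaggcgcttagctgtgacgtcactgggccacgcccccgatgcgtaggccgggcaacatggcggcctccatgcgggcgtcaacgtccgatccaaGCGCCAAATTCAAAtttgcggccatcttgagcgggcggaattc
KIF23: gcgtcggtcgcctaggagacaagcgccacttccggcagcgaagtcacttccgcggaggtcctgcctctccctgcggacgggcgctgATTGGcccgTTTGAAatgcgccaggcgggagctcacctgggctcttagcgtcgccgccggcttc
KIF11: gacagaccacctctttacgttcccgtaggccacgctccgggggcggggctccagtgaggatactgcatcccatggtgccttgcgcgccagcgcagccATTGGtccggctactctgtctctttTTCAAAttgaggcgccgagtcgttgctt
KIF4A: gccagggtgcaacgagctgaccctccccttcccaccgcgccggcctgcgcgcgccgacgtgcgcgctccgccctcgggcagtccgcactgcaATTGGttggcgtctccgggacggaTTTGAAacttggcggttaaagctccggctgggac
KIF2C: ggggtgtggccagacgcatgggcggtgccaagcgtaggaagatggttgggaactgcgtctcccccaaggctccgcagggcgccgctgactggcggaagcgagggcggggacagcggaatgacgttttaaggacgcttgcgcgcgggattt
KIF18B: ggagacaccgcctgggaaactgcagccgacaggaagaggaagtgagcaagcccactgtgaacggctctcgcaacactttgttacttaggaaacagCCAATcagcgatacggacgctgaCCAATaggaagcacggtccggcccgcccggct
KIF20A and KIFC1 each held 2 reversed CCAAT boxes and no match to the CHR letters searched in the 250 bases before the start. Other forms of the CHR, and bases after the start, were not searched, so a lack of the element is not shown. KIF23, KIF11 and KIF4A each held 1 reversed CCAAT box followed by 1 CHR. In KIF15 a reversed E2F motif was directly followed by a reversed CHR, with no CCAAT box. KIF18B held 2 CCAAT boxes and no CHR match, like the called pair but with the boxes in the other direction, and KIF2C held no match to any motif searched.

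RefSeq windows were found for 34 of the 42 kinesins (43 windows, some genes having several starts). KIF13B, KIF19, KIF21B, KIF26B, KIF27, KIF5A, KIFC2 and KIFC3 had none. Of the 12 mitotic kinesins tested, 6 had a CHR in the 250 bases before a start (KIF11, KIF15, KIF18A, KIF22, KIF23 and KIF4A), and 10 had a CCAAT box. Among the 9 tested transport kinesins with a window, 1 had a CHR (KIF5B) and 3 a CCAAT box. Counted by window, a CHR stood in 46.7% of those of mitotic kinesins, 6.2% of those of transport kinesins and 14.3% of all 35116 promoters. For the CCAAT box these shares were 73.3%, 31.2% and 32.0%, and for the E2F motif 6.7%, 0.0% and 1.9%. The shares by window include members that were not tested, and both windows of KIF22 held the same CHR site. A match is a run of letters, and these data do not show that any factor binds it.

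The values are TPM, abundances per unit of transcript length scaled to the same total in every library, so read depth is unknown and errors here are the spread over replicates. Between 14592 and 14889 rows reached 1 TPM in the irradiated libraries, against 14248 to 14417 in the controls. VIM, CD44 and AXL, which mark this mesenchymal line, summed to 1922 to 2005 TPM in the irradiated libraries, against 2347 to 2406 TPM in the controls. Of the 6 luminal or epithelial markers, ESR1, PGR and CDH1 reached at most 0.40 TPM in any library, with PGR at 0, while KRT19, EPCAM and GATA3 were expressed and tested. All 6 summed to 175 to 180 TPM in irradiated and 165 to 177 TPM in control libraries. KRT19 made up most of this, with 161 to 168 TPM in irradiated and 151 to 163 TPM in control libraries. EPCAM had 8.32 to 8.61 TPM in irradiated and 9.43 to 11.3 TPM in control libraries, and GATA3 3.82 to 4.96 and 3.70 to 4.51 TPM. Leukocyte markers, of which 1 of 5 was tested, summed to 95.4 to 133 TPM in irradiated libraries, against 59.98 to 67.5 TPM in controls. CD68, a lysosomal gene that is not confined to leukocytes, made up 92.0 to 97.3 TPM in irradiated and 59.0 to 67.1 TPM in control libraries, and PTPRC reached 40.4 TPM in irradiated replicate 1 but at most 0.45 TPM in the other 5 libraries. The 4 fibroblast markers, 2 of them tested, summed to 11.2 to 14.8 TPM in irradiated and 7.47 to 11.1 TPM in control libraries, and the 3 endothelial markers, 1 of them tested, to 1.05 to 1.64 TPM in irradiated and 1.00 to 1.49 TPM in control libraries. Their part in the kinesin values was not tested.

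Irradiated replicate 2 stood apart for the kinesins. In 21 of 30 tested members it was below both other irradiated libraries, a share of 70.0%, against 54.5% of all 14621 rows tested. By this measure control replicate 3 was lowest of its group in 53.3% of the kinesins, against 34.0% of all rows, with a median log2 deviation of -0.04. The share was 3.33% for irradiated replicate 3 and 6.67% for control replicate 2, against 18.5% and 30.6% of all rows. The median deviation of irradiated replicate 2 from the mean of irradiated replicates 1 and 3 was -0.20 on the log2 scale over the kinesins and -0.09 over all tested rows. The deviation was lowest for KIF14 (-0.67), KIF21A (-0.61), KIF3A (-0.61), KIF1B (-0.51) and KIF5B (-0.51), whose longest annotated transcripts had 5877 to 10669 bases. It was close to 0 for short kinesin transcripts such as KIF22 (0.03, 2505 bases) and KIFC1 (-0.02, 2706 bases). Some members lay off this pattern, such as KIF1C (0.00, 7919 bases), KIF2A (-0.35, 3360 bases) and KIF9 (0.48, 3357 bases). Across the 30 kinesins the deviation and log2 transcript length had a Pearson correlation of -0.54 and a Spearman correlation of -0.57, as a description over genes of the same libraries, and across the 14244 tested rows with a length the Pearson value was -0.21. Irradiated replicate 3 (0.52) and control replicate 2 (0.48) had positive Pearson values over the kinesins against the other 2 libraries of their group. Values without irradiated replicate 2 are given below for members that results turn on.

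**Figure D1:**
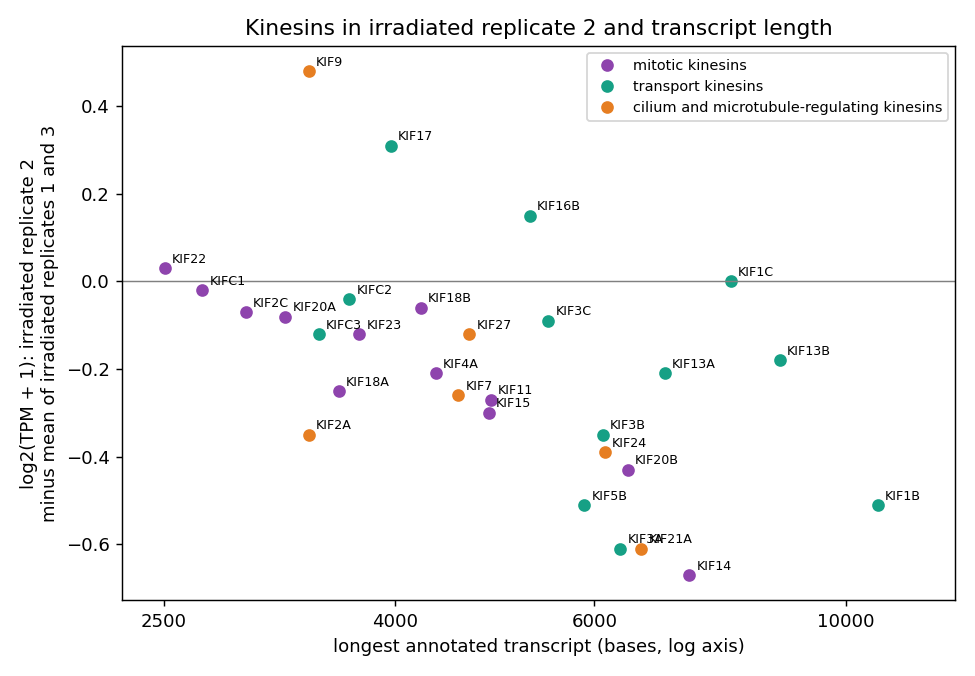
Each point is 1 of the 30 tested kinesins, with the length of its longest annotated transcript in bases (log axis) and, on the vertical axis, log2(TPM + 1) in irradiated replicate 2 minus the mean of irradiated replicates 1 and 3; colours give the roles. Long transcripts such as KIF14 (-0.67) and KIF1B (-0.51) lay below 0, and short ones such as KIF22 (0.03) and KIFC1 (-0.02) lay near 0. Exceptions include the long KIF1C (0.00) and the shorter KIF2A (-0.35) and KIF9 (0.48).

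Irradiation was followed by a lower level of 3 kinesin transcripts and a higher level of 1. In mean TPM, KIF20A of the mitotic group fell by 30.1%, KIFC1 of the same group fell by 20.6% and KIFC3 of the transport group fell by 19.0%, while KIFC2 of the transport group rose by 39.3%. The other 26 tested members did not pass the test, among them the spindle motors KIF11, KIF2C, KIF22 and KIF23, which differed by at most 5.1% in mean TPM. The test was limma on log2(TPM + 1) over all 14621 rows with at least 1 TPM in at least 3 libraries, called at a Benjamini-Hochberg adjusted p under 0.05. All fold changes are on this scale, irradiated minus control. Of the 30 kinesins tested, 4 were called, 13.3%, beside 10.6% of all rows tested, 1 was called higher, beside 6.53% of all rows, and 3 were called lower, beside 4.07%. In a fit of protein-coding genes only, the same 4 kinesins were called, beside 14.8% of rows. With a filter of 5 TPM the same 4 were called of 28 kinesins tested, again beside 14.8% of rows. The 3 irradiated and 3 control values did not overlap for 7 of the 30, while 34.9% of all tested rows had no overlap. The median log2 change was -0.05 over the 30 kinesins and 0.03 over all tested rows. Of the 12 members below the filter, KIF2B was listed at 0 in every library, and KIF1A, KIF4B, KIF5A, KIF5C, KIF6, KIF12, KIF19, KIF21B, KIF25, KIF26A and KIF26B reached at most 0.63 TPM in any library. The same 4 genes were called without irradiated replicate 2. Leaving out control replicate 1 left 1 call, KIF20A, and leaving out control replicate 2 or control replicate 3 left KIF20A and KIFC2. Calls over all rows also shrank in these fits, to 2.43% without control replicate 1, 2.09% without control replicate 2 and 5.29% without control replicate 3. With the fit corrected for GC and length of the transcripts there were 8 calls among the kinesins, beside 16.3% of all rows, with KIF18A added as higher and KIF15, KIF18B and KIF5B as lower.

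**Figure D2:**
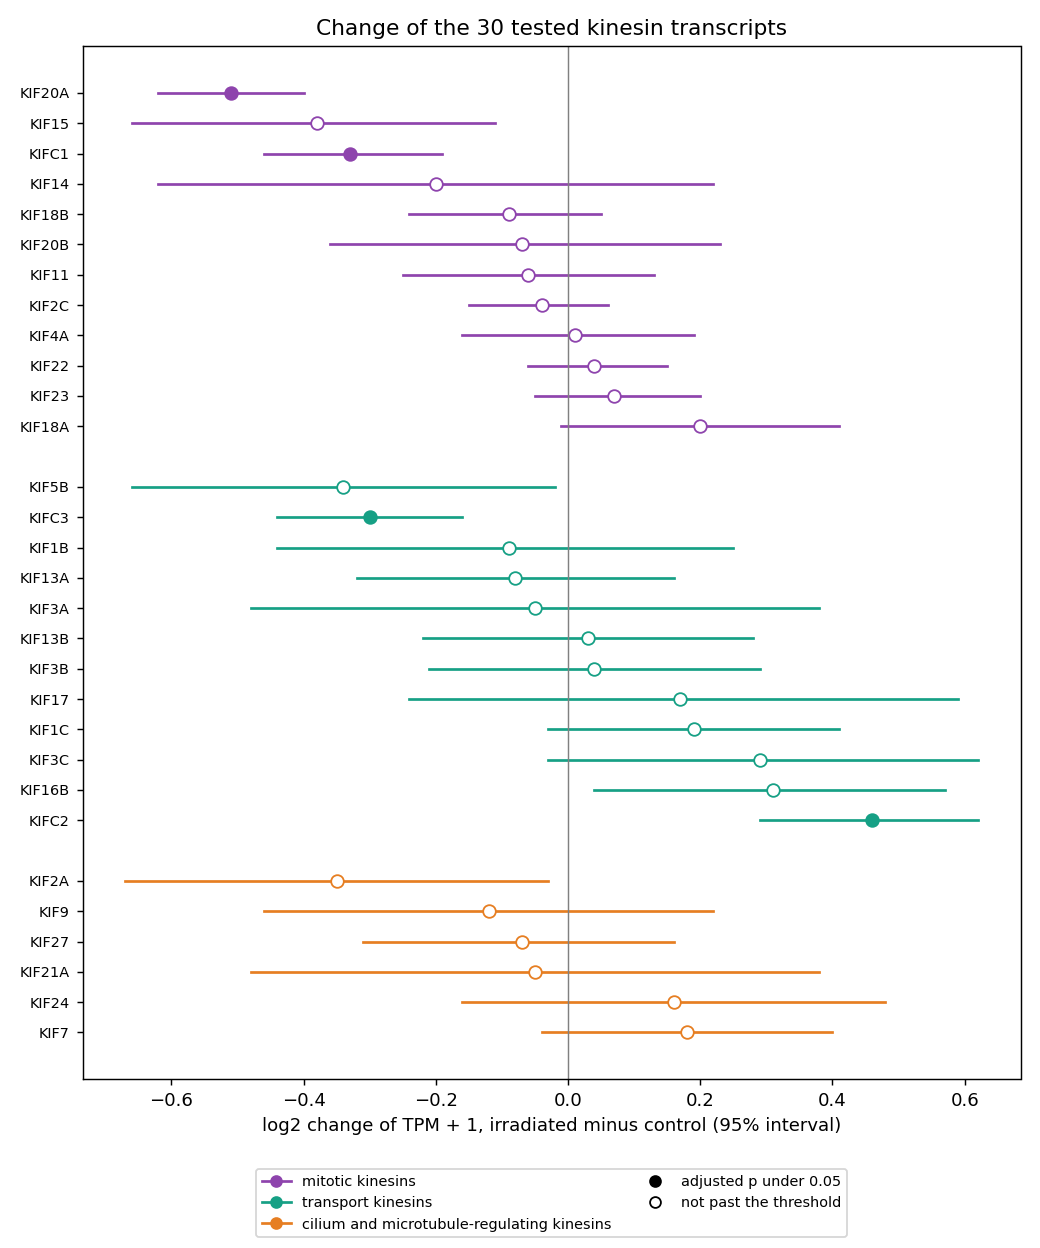
The log2 change of TPM + 1, irradiated minus control, for the 30 tested kinesins with its 95% interval from limma, grouped by role; filled points passed an adjusted p of 0.05. The filled points are KIF20A (-0.51), KIFC1 (-0.33), KIFC3 (-0.30) and KIFC2 (0.46), and most other intervals include 0.

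Among the mitotic kinesins, 2 of 12 tested fell and none rose, by limma (at an unadjusted p under 0.05, 3 were lower and 0 higher), so that 16.7% were called beside 10.6% of all rows. In the fit of protein-coding genes only, 14.8% of rows were called. At that unadjusted p, 1621 of all 14621 rows tested were lower and 2478 higher. KIF20A, a kinesin-6 motor that brings the chromosomal passenger complex to the central spindle before cytokinesis (ENSG00000112984), had 71.0, 68.7 and 74.3 TPM in the irradiated libraries, against 103, 102 and 101 TPM in the controls. The highest irradiated value lay well below the lowest control value. It fell to 71.3 ± 2.78 TPM in irradiated cells, against 102 ± 1.15 TPM in controls (SD, n = 3 each; log2 change -0.51 ± 0.05 SE, adjusted p = 0.00324). The gene overlaps CDC23 and BRD8 on the opposite strand, and whether strand was used in counting is not given in the sources used here. CDC23 had 37.0, 33.6 and 35.6 TPM in irradiated libraries and 37.5, 36.9 and 36.8 TPM in controls, and BRD8 had a log2 change of 0.14 ± 0.10 SE (adjusted p = 0.409). Whether reads of these genes entered the KIF20A values was not tested.

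KIFC1, a kinesin-14 motor that walks to microtubule minus ends and gathers spindle poles and extra centrosomes (ENSG00000237649), had 50.9, 52.4 and 55.6 TPM in the irradiated libraries, against 64.7, 65.3 and 70.1 TPM in the controls. Again the groups were separate. It fell to 52.95 ± 2.42 TPM in irradiated cells, against 66.7 ± 2.94 TPM in controls (log2 change -0.33 ± 0.06 SE, adjusted p = 0.0175). That call was lost without irradiated replicate 1 or any 1 control (adjusted p up to 0.0664), with log2 changes of -0.36 to -0.29 over the fits that left out 1 library. KIF15, a kinesin-12 that helps keep the spindle bipolar beside KIF11, had 25.4, 18.8 and 21.4 TPM in irradiated and 31.3, 28.6 and 26.2 TPM in control libraries. These ranges did not overlap either, but the lowest control was close to the highest irradiated value and the change did not pass (log2 change -0.38 ± 0.12 SE, adjusted p = 0.0785). Without irradiated replicate 2 it was -0.29 ± 0.10 SE (adjusted p = 0.133). KIF15 was called lower with median-ratio scaling, without irradiated replicate 1 and after correction for GC content and length.

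The other kinesin-6 motors did not share the fall of KIF20A. KIF23, the motor subunit of centralspindlin, had 107, 98.9 and 109 TPM in irradiated libraries, against 98.3, 97.0 and 104 TPM in controls. The groups overlapped, with an interval of -0.05 to 0.20 around a log2 change of 0.07. KIF20B, which acts in abscission, had 23.8, 16.7 and 21.8 TPM in irradiated and 22.0, 22.3 and 20.5 TPM in control libraries (log2 change -0.07, interval -0.36 to 0.23). Irradiated replicate 2 held its lowest value, and without it the change was 0.08 (interval -0.09 to 0.24). The ratio of KIF20A to KIF23 within a library, which no scaling between libraries can change, was 0.663, 0.695 and 0.683 in irradiated cells and 1.05, 1.05 and 0.970 in controls. KIF20A and KIF23 were thus near equal in controls, while KIF20A stood at 0.680 ± 0.016 of KIF23 in irradiated cells.

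KIF2C, a kinesin-13 that takes tubulin off microtubule ends at the kinetochore, had 103, 96.2 and 99.4 TPM in irradiated libraries, against 100.2, 102 and 105 TPM in controls (log2 change -0.04, interval -0.15 to 0.06). KIF22, a chromokinesin of the kinesin-10 family that pushes chromosome arms from the poles, had 88.3, 87.7 and 83.6 TPM, against 82.6, 83.7 and 85.3 TPM in controls (log2 change 0.04, interval -0.06 to 0.15). Both had overlapping groups and the narrowest intervals of the uncalled mitotic members. KIF11, the kinesin-5 that pushes spindle poles apart, had 63.6, 51.8 and 62.0 TPM in irradiated libraries, against 63.2, 61.7 and 59.4 TPM in controls. Only irradiated replicate 2 lay below the controls (log2 change -0.06, interval -0.25 to 0.13), and without it the change was 0.03 (interval -0.08 to 0.15).

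KIF18A, a kinesin-8 that holds chromosomes at the spindle equator, had 26.8, 21.7 and 25.2 TPM in irradiated and 22.5, 21.1 and 20.3 TPM in control libraries (log2 change 0.20 ± 0.09 SE, adjusted p = 0.204). It was the highest log2 change of the mitotic group, and irradiated replicate 2 fell within the control range. Without that library the change was 0.28 ± 0.07 SE (adjusted p = 0.056). Its relative KIF18B, which acts on astral microtubules, had 44.9, 45.1 and 49.2 TPM against 47.0, 52.2 and 49.5 TPM in controls (log2 change -0.09, interval -0.24 to 0.05). KIF4A, a chromokinesin of the kinesin-4 family that limits the overlap of central spindle microtubules, had 31.2, 26.2 and 29.7 TPM against 29.4, 28.98 and 27.8 TPM in controls. Its intronless relative KIF4B stayed at or below 0.36 TPM, and reads shared by these near-identical sequences could be split between them. KIF4A overlaps PDZD11 on the opposite strand, which rose (log2 change 0.22 ± 0.05 SE, adjusted p = 0.0357). Coding genes on the same strand overlap KIF15 (TMEM42, log2 change 0.34 ± 0.09 SE, adjusted p = 0.0564) and KIF2A (IPO11, 0.13 ± 0.08 SE, adjusted p = 0.319). KIF2A, KIF7, KIF9, KIF18A, KIF24 and KIFC2 also overlap coding genes on the opposite strand. The part of these overlaps in the kinesin values was not tested. KIF14, a kinesin-3 of the midbody, had 13.4, 7.97 and 13.2 TPM in irradiated libraries, against 13.2, 13.2 and 12.6 TPM in controls. Irradiated replicate 2 lay far below the other 5 libraries, which were close together (log2 change -0.20 ± 0.18 SE, adjusted p = 0.516, and 0.03 ± 0.06 SE without that library).

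**Figure D3:**
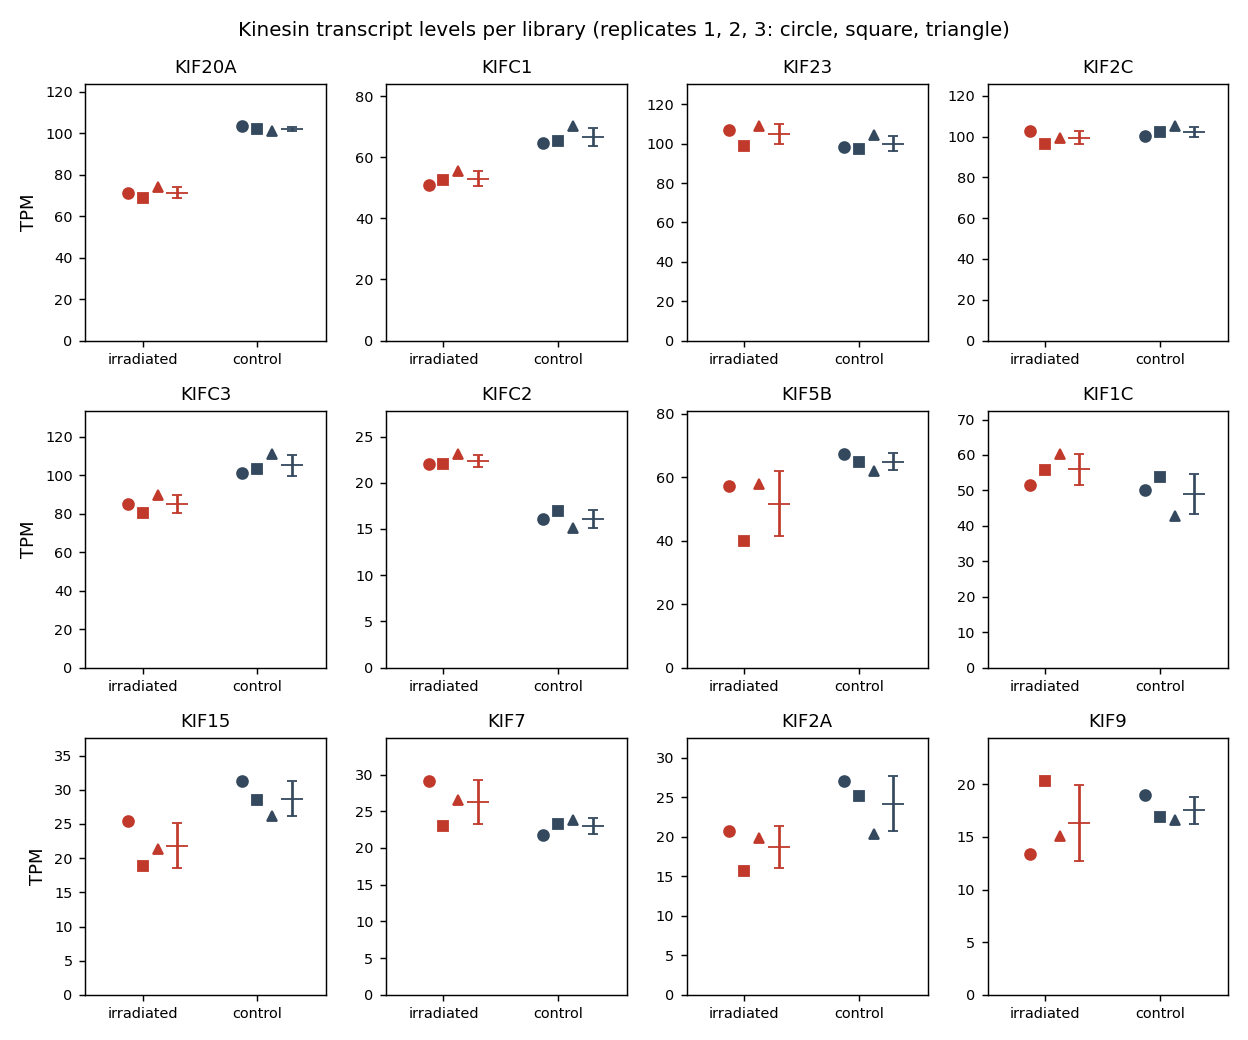
TPM of 12 kinesins in each library, irradiated left and control right, with replicates 1, 2 and 3 as circle, square and triangle and the mean ± SD (n = 3) beside them; axes start at 0. KIF20A, KIFC1 and KIFC3 lay lower and KIFC2 higher in all irradiated libraries, KIF15 and KIF5B lay lower without passing the test, and KIF23, KIF2C, KIF1C, KIF7, KIF2A and KIF9 overlapped between groups.

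A match to the CHR letters searched above divided the tested mitotic members evenly, a split made after the values were seen and therefore without a test. The 6 tested members with a match had log2 changes of -0.38 (KIF15) to 0.20 (KIF18A), with a median of 0.03. The 6 members without one had changes of -0.51 (KIF20A) to -0.04 (KIF2C), with a median of -0.15. The medians were 0.06 with and -0.05 without a match when irradiated replicate 2 was left out. Both called mitotic members were among those without a match, and the 2 ranges overlapped.

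Of the 12 tested transport kinesins, 1 rose and 1 fell (at an unadjusted p under 0.05, 2 were higher and 2 lower, beside 2478 higher and 1621 lower of all 14621 rows), so that 16.7% were called beside 10.6% of all rows. The share of rows called was 14.8% in the fit of protein-coding genes only. Both called genes were C-terminal motors of the kinesin-14 family, which move towards microtubule minus ends like KIFC1. KIFC2, known mostly from neurons in mice (ENSG00000167702), had 22.0, 22.0 and 23.2 TPM in irradiated libraries, against 16.1, 17.0 and 15.1 TPM in controls. All irradiated values lay above all controls. KIFC2 rose to 22.4 ± 0.673 TPM in irradiated cells, against 16.1 ± 0.945 TPM in controls (log2 change 0.46 ± 0.07 SE, adjusted p = 0.0131). Its call was lost without irradiated replicate 3 or control replicate 1 (adjusted p = 0.0501 and 0.0567), with log2 changes of 0.41 to 0.49 over the fits that left out 1 library.

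KIFC3, which acts at cell junctions and the Golgi (ENSG00000140859), had 84.9, 80.5 and 89.9 TPM in irradiated libraries, against 101, 103 and 111 TPM in controls, again with no overlap. It fell to 85.1 ± 4.75 TPM in irradiated cells, against 105 ± 5.42 TPM in controls (log2 change -0.30 ± 0.06 SE, adjusted p = 0.0248). The call was lost with no filter, with eBayes without trend and without irradiated replicate 1 or any 1 control (adjusted p up to 0.0822). The within-library ratio of KIFC2 to KIFC3 was 0.259, 0.273 and 0.257 in irradiated cells, against 0.159, 0.165 and 0.136 in controls. KIFC1 and KIFC3 kept a similar ratio, 0.623 ± 0.027 in irradiated cells and 0.635 ± 0.0057 in controls. These ratios restate the changes given above, in which KIFC2 moved apart from KIFC1 and KIFC3, and are no separate support for them.

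KIF5B, the heavy chain of conventional kinesin (kinesin-1) in most tissues, had 57.3, 40.0 and 57.8 TPM in irradiated libraries, against 67.4, 64.9 and 62.1 TPM in controls. The groups did not overlap, but irradiated replicate 2 lay far below the rest and the change did not pass (log2 change -0.34 ± 0.14 SE, adjusted p = 0.153). Without irradiated replicate 2 the log2 change was -0.17 ± 0.05 SE (adjusted p = 0.0869). The neuronal heavy chains KIF5A and KIF5C reached at most 0.48 TPM, so KIF5B made up nearly all kinesin-1 heavy chain transcript. KIF1C, a kinesin-3 that carries secretory vesicles and integrins, had 51.5, 55.9 and 60.4 TPM against 50.1, 53.9 and 42.9 TPM in controls, with overlap (log2 change 0.19 ± 0.10 SE, adjusted p = 0.239).

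KIF16B, a kinesin-3 that moves early endosomes, had 3.79, 4.34 and 3.85 TPM in irradiated libraries, against 3.10, 3.12 and 2.89 TPM in controls. All irradiated values were higher, but the change did not pass (log2 change 0.31 ± 0.11 SE, adjusted p = 0.126). Of the kinesin-2 motors, KIF3A and KIF3B pair with KIFAP3 in cilia and cytoplasm. KIF3A (log2 change -0.05, interval -0.48 to 0.38), KIF3B (0.04, interval -0.21 to 0.29) and KIF3C (0.29, interval -0.03 to 0.62) had overlapping groups. Without irradiated replicate 2 KIF3A turned to 0.15 and KIF3B stood at 0.16, neither called (adjusted p = 0.45 and 0.135). KIF1B, KIF13A, KIF13B and KIF17 had log2 changes of -0.09 to 0.17, all with overlap, at mean levels of 1.17 to 10.6 TPM in irradiated and 0.92 to 11.3 TPM in control cells.

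None of the 6 tested cilium and microtubule-regulating kinesins was called by limma, and 1, KIF2A, had an unadjusted p under 0.05. Of all 14621 rows tested, 1621 were lower and 2478 higher at that unadjusted p. KIF7, a regulator of Hedgehog signalling at the tip of the primary cilium, had 29.2, 23.1 and 26.6 TPM in irradiated libraries, against 21.8, 23.3 and 23.9 TPM in controls (log2 change 0.18 ± 0.09 SE, adjusted p = 0.254). KIF2A, a kinesin-13 that shortens microtubules at spindle poles and in neurons, had 20.7, 15.6 and 19.8 TPM against 27.1, 25.1 and 20.3 TPM in controls. The ranges overlapped slightly (log2 change -0.35 ± 0.14 SE, adjusted p = 0.144). KIF9, known from motile cilia and sperm, had 13.4, 20.3 and 15.1 TPM against 19.0, 16.9 and 16.7 TPM in controls, with irradiated replicate 2 highest. KIF21A, KIF24 and KIF27 had log2 changes of -0.07 to 0.16. Without irradiated replicate 2 the log2 change was 0.27 for KIF7 (interval 0.10 to 0.44), 0.29 for KIF24 (interval 0.07 to 0.52) and -0.28 for KIF9 (interval -0.50 to -0.06). KIF21A turned to 0.15 and KIF2A stood at -0.23, with intervals that included 0. None of these was called in that fit (adjusted p of 0.0638 to 0.402).

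Set side by side, the mitotic and transport groups differed little. The median log2 change was -0.06 over the 12 tested mitotic and 0.03 over the 12 tested transport members, a difference of -0.10, beside 0.03 over all tested rows. Without irradiated replicate 2 the mitotic median turned to 0.03 and the difference was -0.08 to -0.11 over the fits that left out 1 library. Log2 changes spanned -0.51 to 0.20 in the mitotic and -0.34 to 0.46 in the transport group, so the spread within each role was far wider than the difference of medians. Summed over all 14 members, the mitotic kinesins held 649, 593 and 644 TPM in irradiated libraries, against 678, 678 and 682 TPM in controls, and every irradiated sum was lower. The 15 transport kinesins summed to 296, 266 and 318 TPM against 303, 316 and 309 TPM in controls, with overlap. Mitotic kinesins made up 63.0%, 63.4% and 61.5% of the summed kinesin TPM in irradiated libraries and 63.4%, 62.8% and 63.7% in controls. With KIF20A and KIFC1 left out, chosen after their values were seen, the mitotic sum was 527, 471 and 515 TPM in irradiated libraries and 510, 511 and 511 TPM in controls, so irradiated replicates 1 and 3 then lay above every control.

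**Figure D4:**
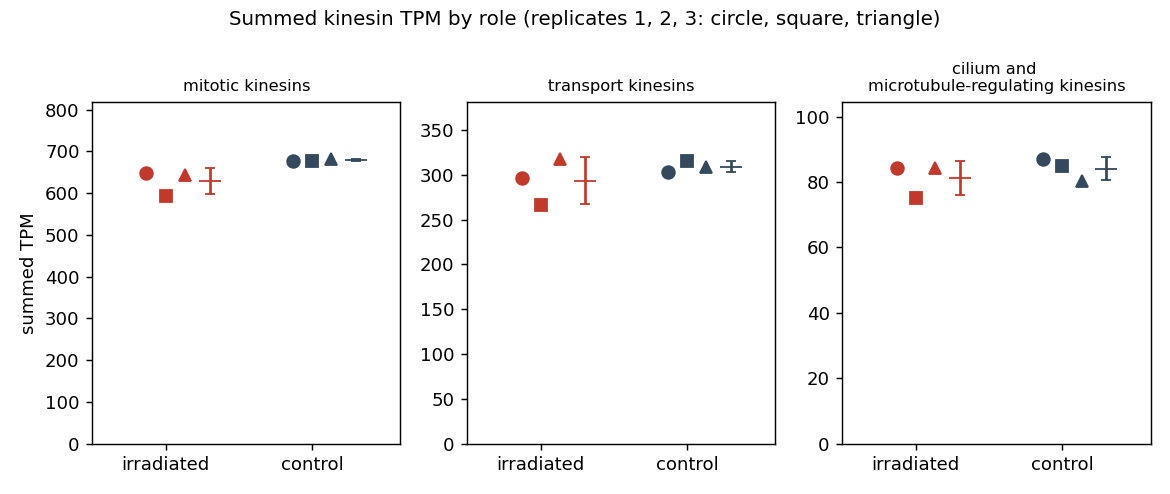
Summed TPM of all members of 3 role groups in each library, irradiated left and control right, with replicates 1, 2 and 3 as circle, square and triangle and the mean ± SD (n = 3) beside them; axes start at 0. The mitotic sum was 593 to 649 TPM in irradiated and 678 to 682 TPM in control libraries, and the other 2 groups overlapped.

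Levels also gave an order among the motors, and TPM is per length, so genes can be compared. Averaged over all 6 libraries the most abundant kinesins were KIF23 (102 TPM), KIF2C (101 TPM), KIFC3 (95.1 TPM), KIF20A (86.7 TPM) and KIF22 (85.2 TPM). In controls KIFC3 (105 ± 5.42 TPM), KIF2C (102 ± 2.42 TPM), KIF20A (102 ± 1.15 TPM) and KIF23 (99.8 ± 3.79 TPM) differed by less than the SD of KIFC3, so their order is not resolved. In irradiated cells KIF23 (105 ± 5.24 TPM) and KIF2C (99.4 ± 3.28 TPM) led, followed by KIF22 (86.5 ± 2.57 TPM) and KIFC3 (85.1 ± 4.75 TPM), which did not differ beyond their SD, while KIF20A (71.3 ± 2.78 TPM) stood below all of these. No tested kinesin changed by as much as 1 on the log2 scale.

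Of 16 partners of the mitotic kinesins, 5 fell and 2 rose, a share of 43.8% called beside 10.6% of all rows, with a median log2 change of -0.17 beside 0.03. CDCA8 and BIRC5, subunits of the passenger complex that KIF20A carries, both fell (log2 change -0.38 ± 0.04 SE, adjusted p = 0.0064, and -0.19 ± 0.05 SE, adjusted p = 0.0401). The kinase and scaffold of that complex did not pass: AURKB had a log2 change of 0.00 (interval -0.12 to 0.11) and INCENP one of 0.02 (interval -0.18 to 0.21). PLK1, the kinase that binds KIF20A, fell (log2 change -0.25 ± 0.04 SE, adjusted p = 0.0171). So did PRC1, the microtubule bundler that recruits KIF4A (log2 change -0.29 ± 0.06 SE, adjusted p = 0.0243). MKI67, the proliferation marker Ki-67, had the largest fall of the list, with 42.1, 34.0 and 46.2 TPM in irradiated libraries, against 63.3, 63.2 and 55.6 TPM in controls (log2 change -0.57 ± 0.11 SE, adjusted p = 0.0246). Both members that rose bind spindle microtubules, HMMR by 0.36 ± 0.08 SE (adjusted p = 0.0402) and NUSAP1 by 0.32 ± 0.08 SE (adjusted p = 0.041) on the log2 scale. Without irradiated replicate 2 the calls of BIRC5 (adjusted p = 0.0581) and NUSAP1 (adjusted p = 0.0549) were lost. In the same fit ECT2 was called lower (log2 change -0.19 ± 0.04 SE, adjusted p = 0.0485) and CIT higher (0.32 ± 0.07 SE, adjusted p = 0.0401). RACGAP1, the centralspindlin partner of KIF23, did not pass (log2 change -0.17 ± 0.07 SE, adjusted p = 0.137). CENPE, the kinetochore kinesin without a KIF symbol, had 14.8, 8.53 and 14.9 TPM in irradiated libraries, against 15.3, 16.3 and 16.01 TPM in controls (log2 change -0.33 ± 0.19 SE, adjusted p = 0.304, and -0.09 ± 0.06 SE without irradiated replicate 2), and STARD9, a kinesin of centrosomes, had a log2 change of -0.04.

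Cell cycle genes gave the setting for these values. Of 14 G2 and M phase genes, 2 rose (CDK1 and UBE2C) and 2 fell (CDC20 and PLK1), 28.6% called beside 10.6% of all rows, with a median log2 change of 0.02. Of 12 S phase genes, 9 (75.0%) fell, beside 4.07% of all rows, and none rose (0 at an unadjusted p under 0.05), with a median of -0.47. Without irradiated replicate 2, TOP2A of the G2 and M phase list was also called higher (log2 change 0.20 ± 0.04 SE, adjusted p = 0.0359). MCM4 of the S phase list lost its call in that fit (adjusted p = 0.0698). In bulk RNA a smaller share of cells in the phase that makes a transcript and less transcript per cell cannot be told apart.

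For the transport motors, 1 of 16 light chains and cargo adaptors fell and 1 rose, 12.5% beside 10.6% of all rows, with a median log2 change of 0.07. Protein-coding genes fitted alone had 14.8% of rows called. KLC2, a light chain of kinesin-1, had 40.2, 37.7 and 38.4 TPM in irradiated libraries, against 47.8, 43.7 and 47.1 TPM in controls (log2 change -0.25 ± 0.06 SE, adjusted p = 0.0391). RHOT2, a mitochondrial GTPase that anchors motors, rose (log2 change 0.20 ± 0.05 SE, adjusted p = 0.0486). Both missed the threshold without irradiated replicate 2 (adjusted p = 0.0623 for KLC2 and 0.0578 for RHOT2). The adaptor MAPK8IP3 was called higher in that fit (log2 change 0.42 ± 0.08 SE, adjusted p = 0.0383), but not with all libraries (0.30, adjusted p = 0.145). The most abundant light chain, KLC1, did not pass (log2 change -0.21 ± 0.08 SE, adjusted p = 0.128). Of 22 genes of cytoplasmic dynein and dynactin, the minus-end motor that works against most kinesins, 2 rose and none fell (2 lower at an unadjusted p under 0.05), with a median of 0.01. These calls were 9.09% of the list, no more than the 10.6% of all rows. DYNC1I1, an intermediate chain known mainly from neurons, had 4.58, 3.66 and 3.96 TPM in irradiated libraries, against 1.83, 1.54 and 1.76 TPM in controls. It rose, with a log2 change above that of every tested kinesin (log2 change 0.90 ± 0.13 SE, adjusted p = 0.00968). DYNLL1, a light chain shared with other complexes, rose to 828 ± 27.3 TPM in irradiated cells, against 675 ± 4.33 TPM in controls (log2 change 0.29 ± 0.04 SE, adjusted p = 0.00705). The heavy chain DYNC1H1 had a log2 change of 0.05 (interval -0.09 to 0.18).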

How the data were processed

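RNA was sequenced from 3 irradiated and 3 control libraries of MDA-MB-231 cells, prepared with a TruSeq RNA kit per the labels' protocols. The submitters' processing notes name HISAT2, StringTie, RSEM and hg38, without versions or roles. The authors deposited TPM values rounded to 2 decimals, and each library summed to the same total within rounding. Groups and replicate numbers came from the sample titles. Within a group at most 0.479% of tested rows were identical in any pair of libraries, so all 6 were kept.

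The 14621 rows that reached 1 TPM in 3 or more libraries were tested on log2(TPM + 1), a scale that shrinks changes of low genes, with limma 3.58.1 in R 4.3.3 (eBayes with trend, 4 residual and 3.39 prior degrees of freedom). Tests were two-sided, p-values were adjusted over all rows by Benjamini-Hochberg with a threshold of 0.05, and intervals are 95%. The members, role lists and partner lists were chosen with earlier results of these data known. Named genes were all called kinesins, the 3 most abundant of each role, and up to 4 called members of each partner list. Further kinesins, overlapping genes, PRC1, PLK1, BIRC5, AURKB, INCENP, RACGAP1, ECT2, CIT, TOP2A, MCM4, MAPK8IP3, KLC1 and DYNC1H1 were named after their values were seen. Coordinates of promoters follow RefSeq on GRCh38.p14; gene types, overlaps, GC content and the length of the longest transcript came from GENCODE 29, which covered 97.4% of tested rows and all 30 tested kinesins. Simulated data of 14621 genes for this comparison held 50 genes with a log2 change of 0.5, 100 with 1 and 50 with 2, in either direction. The fit found 34.0%, 63.0% and 90.0% of these, with 7 false calls among 132. Fewer genes changed there than the 1550 called in the data, and its noise was independent between genes. These rates therefore need not hold for the data. Alternatives were another pseudocount (0.1), a 5 TPM filter or none, median-ratio and quantile scaling, eBayes without trend or robust, each library left out, a replicate block, cubic correction for GC content and length with and without the block, protein-coding genes only, and KIF2A counted as mitotic. Fits without irradiated replicate 2 for kinesins and partners outside the naming rule were added after seeing the data.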

Additional observations from a re-analysis of the deposited data

How the results depend on the processing

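KIF20A was called lower in all 17 alternatives that refitted it (log2 change -0.55 to -0.48, adjusted p up to 0.0341). KIFC1 and KIFC2 kept their calls in 13 of 17 and KIFC3 in 10 of 17, and none of the 4 changed direction. The number of kinesins called higher, 1 as reported, was 2 with correction for GC content and length and 0 with that correction and the replicate block, and those called lower, 3 as reported, were 6 with correction for GC content and length. Leaving out 1 library gave 0 to 1 kinesins called higher and 1 to 3 called lower, medians of -0.10 to 0.03 for mitotic and -0.02 to 0.12 for transport members, and a difference of -0.11 to -0.08. That difference was -0.05 with a filter of 5 TPM and -0.04 after quantile normalization. Calls over all rows, 1550 as reported, numbered 497 with no filter, 993 with eBayes without trend, 2321 with correction for GC content and length, and 306 to 1390 when 1 library was left out. With the replicate block, 362 rows were called and 0 kinesins higher; KIFC2 and KIFC3 lost their calls (adjusted p = 0.0569 for KIFC2 and 0.0502 for KIFC3), though same-numbered libraries shared only a number: their deviations correlated at 0.03, -0.06 and -0.03 across genes. Calls over all rows were 61.6% higher as reported, 47.7% after median-ratio scaling and 36.4% after correction for GC content and length. Without counts, depth limits on single values cannot be given. The causes of these shifts were not tested.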
